A study of Caenorhabditis elegans with 6 samples.

Results

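The proteasome is the protease complex that degrades ubiquitin-tagged proteins. Its genes were followed here in whole embryos of the nematode Caenorhabditis elegans, measured on Affymetrix arrays in 2 genotypes. The members were the rows of the deposited gene table that carry a single symbol of the form pas-, pbs-, rpt- or rpn- with a number. That gave 37 probe sets (array probes grouped to read 1 or more transcripts) for 31 genes, of 22548 features tested and 17137 genes named. A gene with several probe sets was represented by the one with the highest mean log2 intensity over the 6 arrays. The 31 genes comprise 7 alpha ring genes (pas-1 to pas-7), 7 beta ring genes (pbs-1 to pbs-7), 9 genes of the base and 8 of the lid. RefSeq symbols of these families number 33. The other two, rpn-13 and rpn-6.2, stand in the table under sequence names, were not members by the rule, and are given separately.

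The mutant group was 3 arrays of mir-35-41(nDf50) embryos of strain VT2935 without nEx1187, which by nomenclature is an extrachromosomal array. The control group was 3 arrays of wild type N2 embryos. nDf50 is a deletion that takes out the microRNA genes from mir-35 to mir-41, a family active in embryos. All cultures were kept at 20 degrees Celsius on plates enriched with egg yolk, and embryos of all stages were collected together with hypochlorite, so each array averages over stages and cell types, and fewer cells of a type cannot be told apart from less RNA per cell. Separate cultures are not stated for the replicates, and a p-value here reflects the spread of these arrays alone, which may be technical. A free-text stage line, which uses terms of another organism and sets mutant replicates 1 and 2 earlier than the remaining arrays, was not used.

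The core particle of the proteasome is a barrel of stacked rings. The outer alpha rings control entry, and the inner beta rings hold the catalytic threonines inside. The regulatory particle caps the barrel. Its base holds a ring of ATPases that unfold substrates and push them in, with scaffold subunits and ubiquitin receptors, and its lid removes the ubiquitin chain. In eukaryotes the subunit genes are known for being expressed together, and in C. elegans the transcription factor isoform SKN-1A raises them when proteasome activity is low. Embryos depend on the proteasome to clear maternal proteins and to drive cell division.

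The arrays were not alike within a genotype. Wild type replicate 3 had an upper quartile of 8.34 and a 95th percentile of 11.24 (log2 intensity over all features), against 8.62 to 8.67 and 10.80 to 10.90 on the other 5 arrays. Its bright features were thus brighter and its middle range dimmer. Mutant replicates 2 and 3 were nearly alike over all features (Pearson r = 0.998, across features, which are not independent). Values are log2 of the authors' normalized intensity, and a level on 1 probe set is not comparable with a level on another.

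Proteasome genes differed between arrays of 1 genotype at least as much as between the genotypes. The median member was 0.45 higher on mutant replicate 1 than on the mean of mutant replicates 2 and 3, and 0.39 higher on wild type replicate 3 than on the mean of the other 5 arrays (log2). For 22 of the 31 members the 2 lowest arrays were wild type replicates 1 and 2, which was so for 3.85% of all features. Wild type replicate 3 lay above both other wild type arrays for 28 members (47.8% of all features), and mutant replicate 1 lay above both other mutant arrays for 27 (50.3% of all features). A positive mutant-minus-wild-type difference was found for 23 members, where 37.8% of all features had one, but 0 members passed the limma test at an adjusted p of 0.05, where 0.124% of all features passed as higher and 0.00443% as lower. The median difference was 0.23 over the members and -0.096 over all features (log2, mutant minus wild type). With each array centred on its own median, which moved the median of all features to -0.22, the members stood at 0.10 and 20 were positive.

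**Figure D1:**
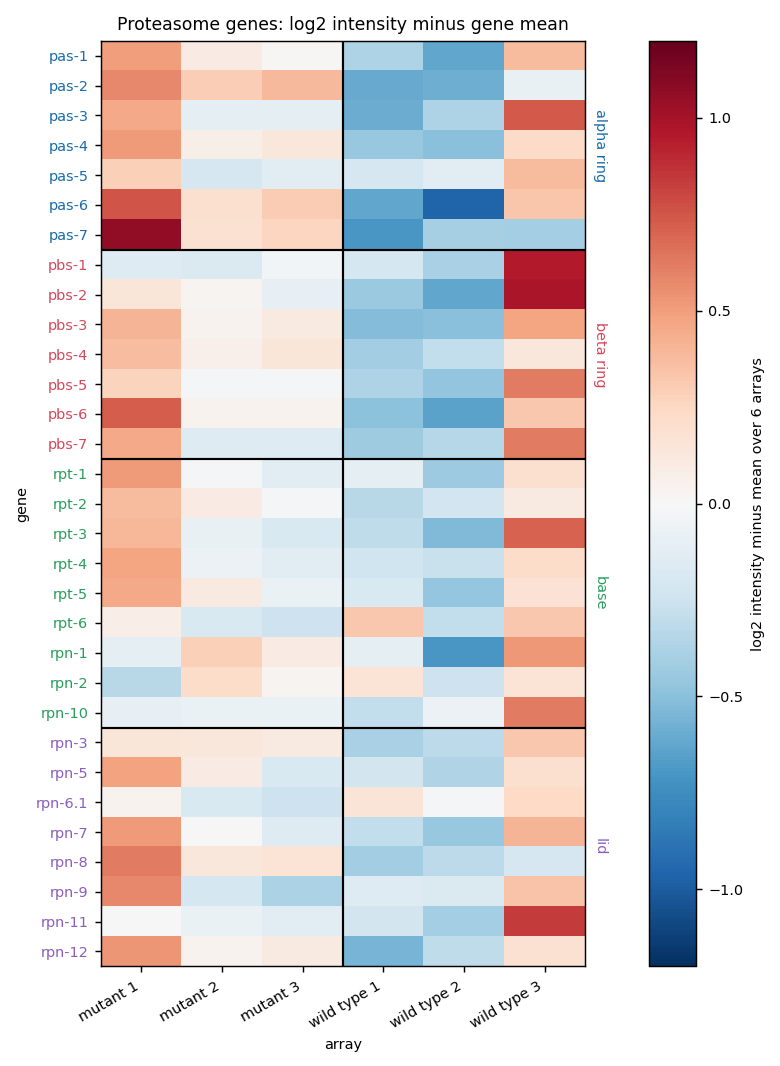
Log2 intensity of each of the 31 proteasome genes (rows, by subcomplex) on each of the 6 arrays (columns), minus the gene's mean over the 6 arrays. Wild type replicates 1 and 2 are mostly blue (below the gene mean), and mutant replicate 1 and wild type replicate 3 are mostly red (above it).

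The alpha ring genes had the largest median difference of the 4 subcomplexes, 0.48, with 6 of 7 positive. Alpha subunits build the outer rings and their gate. pas-7 was at 11.59, 10.71 and 10.78 in the mutant and at 9.83, 10.13 and 10.12 in wild type, in the order of replicates 1 to 3 as in all such values here. Every mutant array was above every wild type array, and wild type replicate 3 did not stand out. The difference was 1.00 ± 0.26 (log2, SE, n = 3 each), or 2.01-fold, with an adjusted p of 0.294. Its probe set is of the Affymetrix type that can match more than 1 transcript. Many other members have this type too, pbs-1, pbs-2, pbs-5, rpn-11 and rpn-6.1 among them.

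pas-2 was at 12.07, 11.79 and 11.89 on the mutant arrays and 10.89, 10.91 and 11.41 on the wild type arrays, again without overlap. The value of wild type replicate 3 fell between the other wild type arrays and the mutant arrays. The difference was 0.85 ± 0.20, with a 95% interval of 0.39 to 1.31 and an adjusted p of 0.249, the smallest of any member.

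pas-6 had mutant values of 11.89, 11.33 and 11.44 and wild type values of 10.50, 10.17 and 11.46. The third wild type array was level with the lower mutant arrays, and the other two lay more than the whole mutant range below it. Its difference of 0.84 ± 0.34 was almost the size of that of pas-2 with a wider error (adjusted p = 0.478). For pas-4 the mutant values were 12.30, 11.86 and 11.93 and the wild type values 11.34, 11.29 and 12.02, so that wild type replicate 3 fell inside the mutant range, and the difference was 0.48 ± 0.25 (adjusted p = 0.534). The remaining alpha genes had differences of 0.41 ± 0.28 for pas-1, 0.15 ± 0.36 for pas-3 and -0.032 ± 0.22 for pas-5, with adjusted p between 0.597 and 0.948. For pas-3 and pas-5 the highest array of all 6 was wild type replicate 3.

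In the beta ring 5 of 7 genes had their highest value on wild type replicate 3, against 2 of 7 in the alpha ring. That array was the highest for 41.9% of all features, and these counts were not tested. The genes of the subunits with a catalytic threonine were among the 5. pbs-1, the caspase-like subunit, was at 11.28, 11.27 and 11.41 in the mutant and 11.23, 11.05 and 12.39 in wild type. Here wild type replicate 3 was almost 1 log2 unit above the highest mutant array, and the other wild type arrays were just below the lowest. The difference was -0.24 ± 0.34, with a 95% interval of -1.02 to 0.55.

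pbs-2, the trypsin-like subunit, was at 11.36, 11.24 and 11.11 in the mutant and 10.77, 10.58 and 12.19 in wild type. The wild type arrays lay on both sides of the mutant arrays, 1.51 log2 units apart between replicate 3 and the mean of the other two, the widest such gap among the members. The genotype difference was 0.058 ± 0.40 (95% interval -0.87 to 0.98).

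pbs-5, the chymotrypsin-like subunit, was at 11.77, 11.49 and 11.48 in the mutant and 11.13, 11.03 and 12.12 in wild type. The order of the arrays was the same as for pbs-2, with wild type replicate 3 at the top and wild type replicates 1 and 2 at the bottom. Its difference was 0.15 ± 0.30, and adjusted p for the 3 catalytic genes lay between 0.745 and 0.947.

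Among the structural beta genes pbs-6 was at 11.84, 11.15 and 11.15 in the mutant and 10.62, 10.46 and 11.43 in wild type. It was highest on mutant replicate 1, and wild type replicate 3 lay above mutant replicates 2 and 3. The difference was 0.54 ± 0.31 (adjusted p = 0.564). pbs-4 was at 11.70, 11.39 and 11.48 and 10.92, 11.04 and 11.47, with wild type replicate 3 inside the narrow mutant range, and differed by 0.38 ± 0.20 (adjusted p = 0.539). pbs-3 was at 11.70, 11.34 and 11.40 and 10.77, 10.79 and 11.76. For pbs-3 wild type replicate 3 was above every mutant array, and the difference was 0.37 ± 0.29 (adjusted p = 0.614). pbs-7 had the same order of groups and a difference of 0.098 ± 0.32.

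The base had a median difference of 0.18, with 6 of 9 genes positive. Its 6 ATPase genes, rpt-1 to rpt-6, encode the hexameric motor that unfolds substrates. rpt-5 was at 11.11, 10.76 and 10.57 in the mutant and 10.47, 10.19 and 10.83 in wild type, and differed by 0.32 ± 0.23 (adjusted p = 0.599). rpt-2 was at 11.24, 10.95 and 10.83 and 10.52, 10.62 and 10.97, and differed by 0.30 ± 0.19 (adjusted p = 0.586). For both, mutant replicate 1 was the highest array and wild type replicate 3 lay among the mutant values.

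rpt-1 was at 11.76, 11.23 and 11.12 in the mutant and 11.13, 10.82 and 11.44 in wild type. Wild type replicate 1 was level with the lower mutant arrays, so the groups overlapped on 2 wild type arrays, and the difference was 0.24 ± 0.24 (adjusted p = 0.667). rpt-3 and rpt-4 differed by 0.082 ± 0.34 and 0.19 ± 0.23. rpt-6 went the other way, at 8.74, 8.47 and 8.41 in the mutant and 8.98, 8.36 and 8.98 in wild type. It was the single ATPase gene with a negative difference, -0.24 ± 0.22 (adjusted p = 0.65), and its wild type replicates 1 and 3 were both above every mutant array.

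The other base genes encode scaffolds and a ubiquitin receptor. rpn-10 encodes a receptor that binds ubiquitin chains, and in C. elegans it has been tied to hermaphrodite sex determination through TRA-2. It was at 10.77, 10.79 and 10.80 in the mutant and 10.57, 10.80 and 11.50 in wild type. The mutant arrays were within 0.05 log2 units of each other, wild type replicate 2 was level with them, and wild type replicate 3 was well above. The difference was -0.17 ± 0.25 with a 95% interval of -0.75 to 0.40 (adjusted p = 0.747). The scaffold genes rpn-1 and rpn-2 differed by 0.18 ± 0.30 and -0.053 ± 0.21, and unlike most members both were lower on mutant replicate 1 than on mutant replicates 2 and 3, by -0.31 and -0.46 (replicate 1 minus the mean of the other two).

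The lid had a median difference of 0.24, with 5 of 8 genes positive. rpn-8 encodes the catalytically inactive partner of the lid deubiquitinase. It was at 11.28, 10.80 and 10.82 in the mutant and 10.24, 10.34 and 10.46 in wild type, the third member without overlap, and wild type replicate 3 was close to the other wild type arrays. The difference was 0.62 ± 0.19, or 1.54-fold (adjusted p = 0.382). rpn-11, which encodes the metalloprotease that cuts the ubiquitin chain off, was at 10.92, 10.83 and 10.78 in the mutant and 10.69, 10.50 and 11.75 in wild type. Although the 2 proteins form a pair, the arrays differed in order: for rpn-11 wild type replicate 3 was far above all other arrays, and the genotype difference was -0.14 ± 0.32 (95% interval -0.88 to 0.60).

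The lid gene rpn-12 was at 11.24, 10.75 and 10.82 in the mutant and 10.16, 10.40 and 10.89 in wild type, a difference of 0.45 ± 0.24 (adjusted p = 0.542), with wild type replicate 3 inside the mutant range. rpn-3 was at 11.62, 11.62 and 11.59 and 11.09, 11.17 and 11.80. Its mutant values were nearly identical while its wild type values spread on both sides of them, and the difference was 0.25 ± 0.22 (adjusted p = 0.632). rpn-6.1, listed as rpn-6, encodes a lid clamp whose extra copies are known to lengthen life in C. elegans. It was at 10.84, 10.61 and 10.55 in the mutant and 10.95, 10.78 and 11.04 in wild type, with the lowest arrays in the mutant, and had the most negative difference of the members, -0.25 ± 0.17 (adjusted p = 0.588). The lid genes rpn-5, rpn-7 and rpn-9 differed by 0.26 ± 0.23, 0.23 ± 0.28 and -0.0092 ± 0.28, with mutant replicate 1 as the highest array in each.

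**Figure D2:**
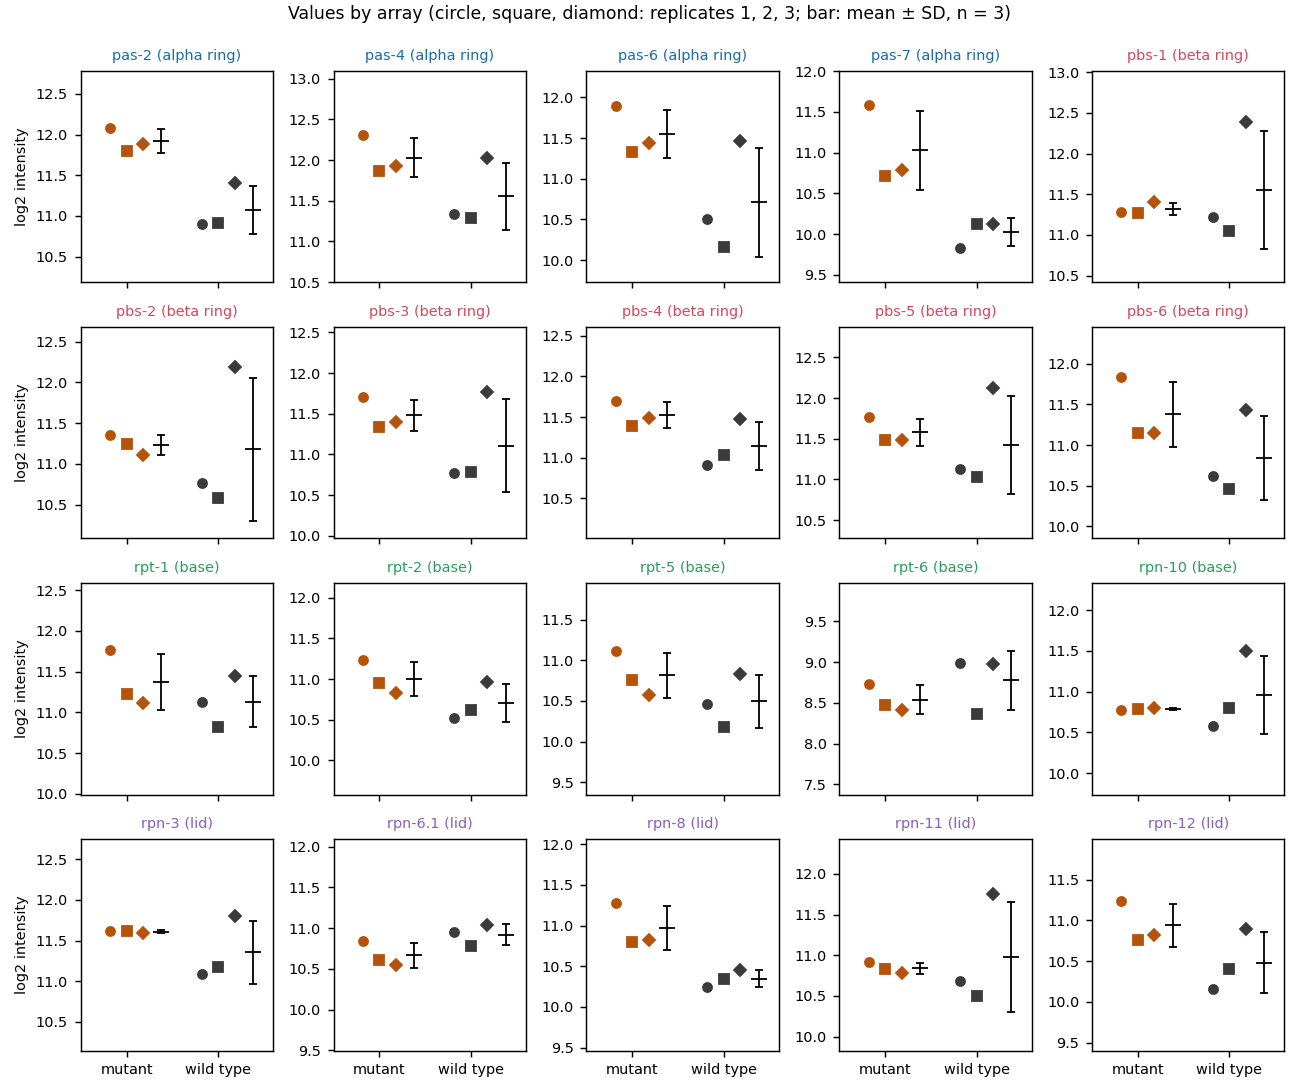
Log2 intensity on the 3 mutant (orange) and 3 wild type (grey) arrays of the 20 genes given in full, each panel spanning the same 2.6 log2 units, with the group mean and SD (n = 3) beside the points. The wild type diamond (replicate 3) stands at or above the mutant points for pbs-1, pbs-2, pbs-5, rpn-10 and rpn-11 and near the other wild type points for pas-7 and rpn-8.

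Taking all members as a list, 4 had an unadjusted limma p under 0.05 and were higher in the mutant (pas-2, pas-6, pas-7 and rpn-8), where 6.23% of all features were, and 0 were lower. Without overlap between the groups, 3 members or 9.68% had all mutant arrays above all wild type arrays, near the 6.16% of all features, and 0 had all mutant arrays below, where 9.37% of all features did. When all 6 arrays were used, the share of members with the mutant above was thus close to that of any feature, and the share with the mutant below was smaller.

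The count of members with the mutant above depended on wild type replicate 3. Without it, 23 members or 74.2% had all mutant arrays above the remaining wild type arrays, where 9.03% of all features did. The exceptions were pas-5, rpt-1, rpt-6, rpn-1, rpn-2, rpn-10, rpn-6.1 and rpn-9. Leaving out another single array gave 3 or 4 members. Without mutant replicates 1, 2 and 3 the counts were 3, 4 and 3, with 12.9%, 7.58% and 7.1% of all features, and without wild type replicates 1 and 2 they were 3 and 3, with 9.28% and 16.9%. The median difference of the members was 0.49 without wild type replicate 3, and 0.087, 0.14 and 0.083 without mutant replicate 1, wild type replicate 1 and wild type replicate 2. Fewer arrays also weaken the test: without wild type replicate 3, 15 members had an unadjusted p under 0.05 and were higher (4.41% of all features), but 0 passed adjustment, and the smallest adjusted p was 0.141 for pas-2 at 1.01 ± 0.13.

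**Figure D3:**
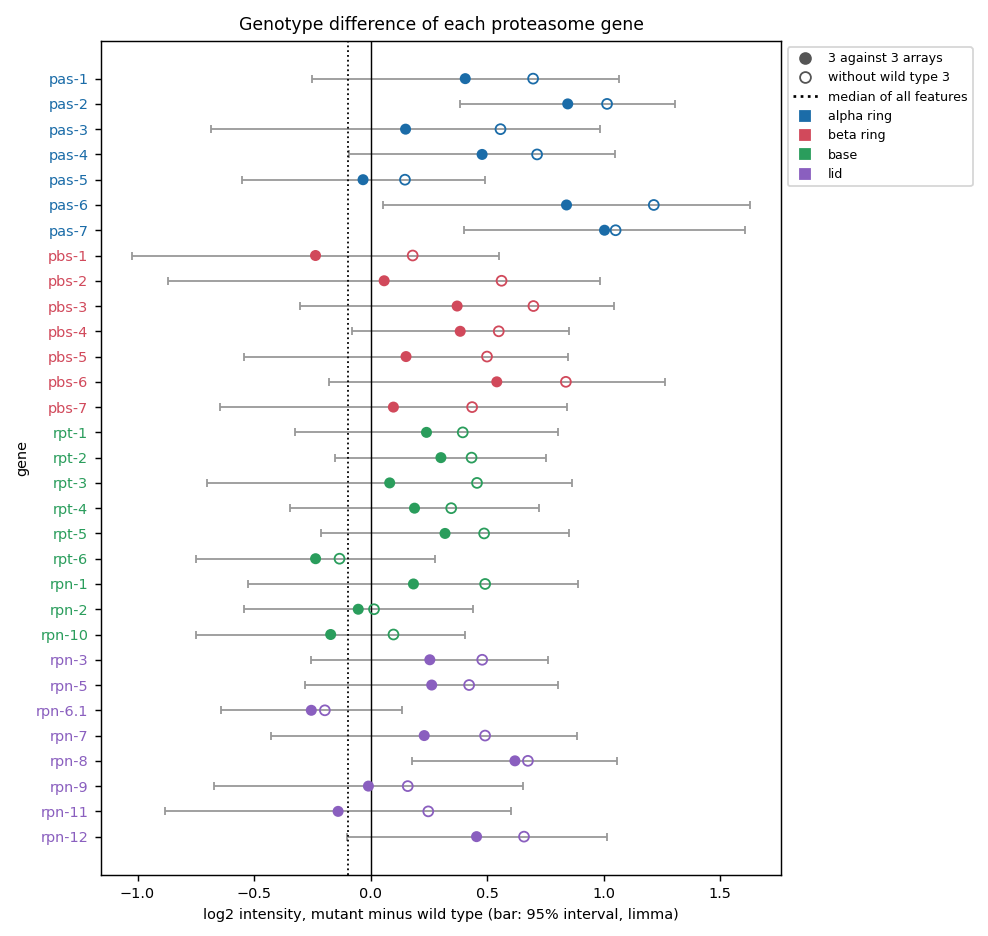
Mutant-minus-wild-type log2 difference of each proteasome gene from all 6 arrays (filled points, with 95% limma intervals) and without wild type replicate 3 (open points), with the median of all features as a dotted line. All open points lie to the right of the filled ones, and 29 of 31 are above 0.

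Since wild type replicate 3 differed from the other arrays in its whole distribution of intensities, the same members were read after quantile normalization of all arrays to 1 distribution. As deposited, the typical member (median) deviated from its own mean by 0.45, 0.039 and -0.03 on the mutant arrays. On the wild type arrays it deviated by -0.33, -0.39 and 0.32. After the renewed normalization these deviations were 0.51, 0.15 and 0.087 in the mutant and -0.32, -0.35 and -0.022 in wild type. The third wild type array then lay below the medians of all 3 mutant arrays and above those of the other wild type arrays. The median genotype difference was 0.39 against -0.05 for all features, 28 members were positive, and 15 members or 48.4% separated the groups with the mutant above, where 7.04% of all features did. An unadjusted p under 0.05 with the mutant higher was reached by 13 members (5.49% of all features), again with 0 past adjustment. pas-2 was at 1.05 ± 0.13 with an adjusted p of 0.0856, and rpn-8 at 0.75 ± 0.16 with 0.219.

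**Figure D4:**
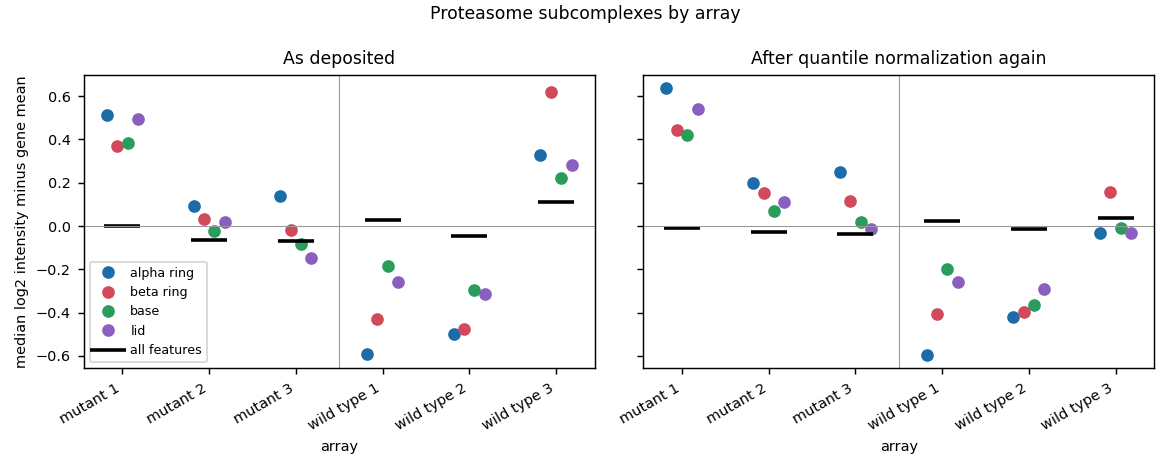
Median over the genes of each subcomplex of the log2 intensity minus the gene's mean, on each array, as deposited (left) and after quantile normalization again (right), with all features as black bars. The beta ring stands at 0.62 on wild type replicate 3 as deposited and at 0.16 after the second normalization, while wild type replicates 1 and 2 stay below 0 in all 4 subcomplexes.

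By subcomplex, the beta ring was the highest on wild type replicate 3 as deposited, with a median deviation of 0.62, against 0.33 in the alpha ring, 0.22 in the base and 0.28 in the lid. The alpha ring was the lowest on wild type replicate 1, at -0.59, and the base the least low, at -0.19. On mutant replicate 1 the 4 subcomplexes were close, from 0.37 in the beta ring to 0.51 in the alpha ring. The core particle had a median difference of 0.38 over 14 genes and the regulatory particle one of 0.19 over 17. Leaving out wild type replicate 3 gave 0.63 and 0.42.

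Markers of embryo stages also moved with the arrays. All 23 early embryo and maternal markers were measured (pie-1, mex-5 and the eggshell gene cpg-1 among them, and skn-1, which is also on a list of the ubiquitin pathway). The log2 of their summed intensity was 14.27 to 14.39 in the mutant and 14.31 to 15.07 in wild type. The wild type arrays in order were at 14.75, 14.31 and 15.07, so replicate 1 was high in maternal markers and low in proteasome genes, while replicate 3 was high in both. Adult body markers (8 of 10 measured, mostly vitellogenins) were at 8.27 to 8.39 in the mutant and at 8.45, 8.24 and 9.01 in wild type, and sperm markers (14 of 16 measured) at 9.51 to 9.71 and 9.65 to 9.69. The sum for sperm leans on its brightest marker, spe-39, which was lowest on wild type replicate 3, at 8.10. Of the 14 sperm markers, 12 were highest on that array (41.9% of all features), with a median deviation of 0.37. The sperm markers other than spe-39 were dim, below the median of all features on every array (log2 6.29 to 6.56). Most values of the adult body markers were below it too. Markers of late embryos differed between the mutant arrays. On mutant replicate 1, where most proteasome genes were high, the summed level of muscle markers was 14.55, against 14.74 to 15.16 on the other arrays, and 7 of 10 muscle genes were lowest there. Intestine markers summed to 13.31 on that array and to 13.51 to 14.16 on the others. Their median deviations there were -0.47 for muscle and -0.31 for intestine. The neuron markers had median deviations of -0.06, 0.39 and 0.44 in the mutant and -0.018, 0.20 and -0.60 in wild type, lowest on wild type replicate 3, while their summed level was lowest on wild type replicate 2. The summed levels in the mutant and in wild type were 12.90 to 13.16 and 12.86 to 12.93 for neurons, 12.33 to 12.67 and 12.30 to 12.96 for pharynx, 15.84 to 15.85 and 15.83 to 16.33 for epidermis, and 13.36 to 13.44 and 13.40 to 13.59 for lineage factors.

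The median log2 difference was -0.35 for early and maternal markers, -0.15 for 19 of 20 lineage factors active around gastrulation, and -0.059, -0.13, -0.12, 0.56 and -0.11 for muscle (10 of 10), pharynx (9 of 10), epidermis (13 of 13), neurons (12 of 12) and intestine (10 of 10). It was -0.31 for adult body and -0.22 for sperm markers, and 0 markers passed the adjusted threshold. Without wild type replicate 3 these medians were -0.24 for early and maternal markers, -0.064 for lineage factors, -0.08 for muscle, 0.041 for pharynx, -0.013 for epidermis, 0.32 for neurons, -0.022 for intestine, -0.035 for adult body and -0.10 for sperm. After quantile normalization again pharynx, epidermis and intestine turned to 0.026, 0.14 and 0.0016. Early and maternal markers then stood at -0.41, lineage factors at -0.23 and adult body markers at -0.35. Muscle, neuron and sperm markers stood at -0.00059, 0.49 and -0.16. The epidermis markers were split. As deposited, 8 of 13 were negative, but dpy-8, dpy-9 and rol-6 were at 1.35 ± 0.28, 1.63 ± 0.24 and 0.49 ± 0.21. Those 3 had all mutant arrays above all wild type arrays, as had 3 of 12 neuron markers (6.16% of all features). All mutant arrays lay below all wild type arrays for 4 of 23 early and maternal markers and 4 of 19 lineage factors (9.37% of all features). In each of these 2 lists 1 marker lay above, and 1 neuron marker, snb-1, lay below. Of the early and maternal markers 20 were negative, and 6 had an unadjusted limma p under 0.05 and were lower, as were 895 of 22548 features. The part of embryo stage or of adult material in the proteasome values was not tested. No detection calls were used, so the intensities show no marker as absent.

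Of the 31 members, 6 had 2 probe sets, and the 2 had the same sign of difference for each gene. The differences on the brighter and dimmer probe set were 0.37 and 0.54 for pbs-3, 0.098 and 0.21 for pbs-7, 0.24 and 0.22 for rpt-1, 0.30 and 0.37 for rpt-2, -0.053 and -0.28 for rpn-2, and -0.17 and -0.043 for rpn-10. The dimmer rpt-2 probe set had all mutant arrays above all wild type arrays, which the brighter one did not. The receptor gene rpn-13, listed by sequence name, was at 10.34, 10.30 and 10.15 in the mutant and 10.50, 10.26 and 10.77 in wild type, a difference of -0.24 ± 0.19. The rpn-6.1 paralogue rpn-6.2 differed by -0.49 ± 0.18 (adjusted p = 0.451), with all mutant arrays below all wild type arrays.

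The members lie on 5 of the 6 chromosomes, with 10 on chromosome I, 7 on II, 6 on III, 3 on IV, 5 on V and 0 on the X in RefSeq. The deleted microRNA genes are on chromosome II. rpn-12 is the nearest member, with 25 protein-coding genes between it and the deleted locus, followed by rpn-9 with 68 and pas-7 with 315. Their differences, given above, were 0.45, -0.0092 and 1.00.

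In the rest of the ubiquitin pathway wild type replicates 1 and 2 were the 2 lowest arrays for 0 to 2 genes of each list, and 0 genes of the lists described here passed the adjusted threshold. Of 7 accessory and shuttle genes, 2 were positive, with a median of -0.16. The median was -0.056 without wild type replicate 3 and 0.038 after quantile normalization again. rad-23, which delivers ubiquitinated proteins, was at 11.22, 11.07 and 11.09 in the mutant and 11.53, 11.35 and 12.54 in wild type, with every mutant array below every wild type array and a difference of -0.68 ± 0.31 (adjusted p = 0.504). The deubiquitinase gene ubh-4 differed by 0.48 ± 0.23, the proteasome-bound deubiquitinase gene usp-14 by 0.12 ± 0.16, and the second shuttle gene ubql-1 by -0.16 ± 0.20. The activator gene psme-3 differed by -0.34 ± 0.26, the small lid subunit gene dss-1 by -0.19 ± 0.32 and the assembly chaperone gene psmd-9 by -0.013 ± 0.21. As with the subunits, mutant replicate 1 was above both other mutant arrays for all 7 genes, but for 0 of them were wild type replicates 1 and 2 the lowest arrays.

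SKN-1A is made at the endoplasmic reticulum, extracted by SEL-1 and its partners, trimmed by the glycanase PNG-1 and cut by the protease DDI-1 before it activates proteasome genes. skn-1 itself was at 8.17, 9.31 and 9.16 in the mutant and 8.94, 8.35 and 8.83 in wild type. It was lowest on mutant replicate 1, an array on which most proteasome genes were high, and its difference was 0.17 ± 0.32 (adjusted p = 0.802). The probe set does not tell the isoforms of skn-1 apart in the table. sel-1 differed by 0.38 ± 0.17 with all mutant arrays above all wild type arrays, png-1 by -0.39 ± 0.24, ddi-1 by -0.27 ± 0.17 and the SKN-1 inhibitor gene wdr-23 by 0.28 ± 0.25, each with an adjusted p above 0.5. The median of the 5 genes was 0.17, and 0.066 without wild type replicate 3. No single-gene feature names sel-11, the 6th gene of the list.

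Ubiquitin, E1 and E2 genes (23 of 24 measured) had a median difference of -0.17, with 8 positive. Without wild type replicate 3 it was 0.023, with 12 positive, and after quantile normalization again -0.051. The leading genes went in opposite directions: the E2 variant gene uev-1 was at 11.71, 11.37 and 11.55 in the mutant and 10.74, 10.62 and 11.06 in wild type (0.74 ± 0.19, adjusted p = 0.287), and the conjugating enzyme gene ubc-20 differed by -0.66 ± 0.28. For the CDC-48 segregase, which pulls ubiquitinated proteins out of complexes, 10 of 12 genes were measured, with a median of -0.048, which was -0.10 without wild type replicate 3 and 0.035 after quantile normalization again. Its cofactor gene ufd-3 was at 10.33, 10.31 and 10.17 in the mutant and 9.70, 9.65 and 9.59 in wild type (0.62 ± 0.15, adjusted p = 0.261), and ubxn-1 differed by -0.63 ± 0.21. Cullin-RING ligase genes (28 of 32) had a median of -0.16, with 8 positive and 20 negative. That median was -0.0043 without wild type replicate 3, with 14 of 28 positive, and -0.026 after quantile normalization again. The 2 cullin-RING genes with the smallest p were the Skp1-related genes skr-5 at 1.05 ± 0.22 and skr-3 at 0.91 ± 0.27. Of these skr-5 was dim, at 4.62 to 6.33 on the 6 arrays (log2).

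The lid shares its architecture with the COP9 signalosome and the translation factor eIF3. COP9 genes (7 of 7) had a median difference of 0.055, with csn-6 at -0.40 ± 0.20 and csn-1 at 0.52 ± 0.38, and eIF3 genes (11 of 13) one of -0.014, with eif-3.C at 0.72 ± 0.32 and eif-3.J at -0.25 ± 0.24. Mutant replicate 1 was above both other mutant arrays for all 7 and all 11 of them. The CCT chaperonin genes, which encode another ring complex (8 of 8), had a median of -0.068, with cct-8 at 0.41 ± 0.28 and cct-7 at -0.46 ± 0.36. The sign of all 3 medians turned without wild type replicate 3, to -0.054 for COP9, 0.12 for eIF3 and 0.063 for CCT, and after quantile normalization again, to -0.033, 0.054 and 0.11.

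**Figure D5:**
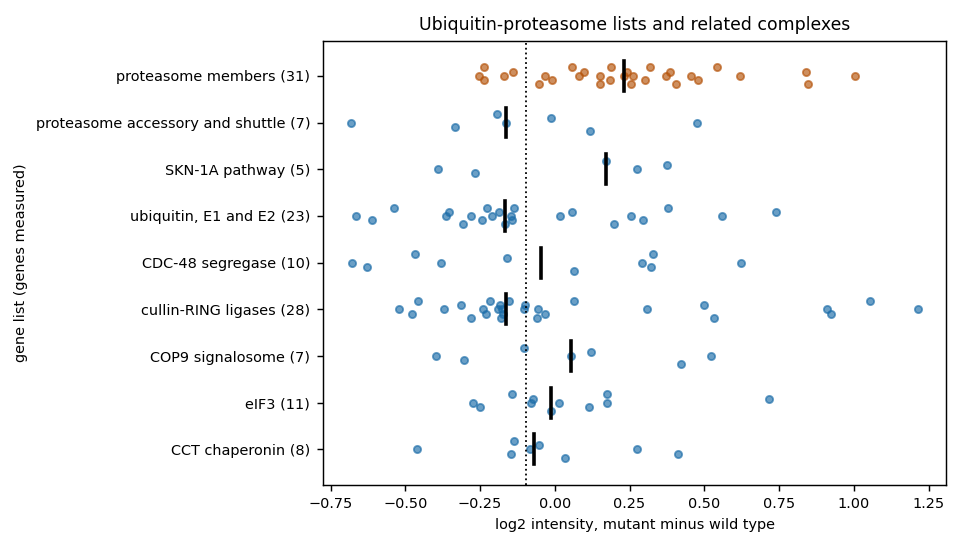
Mutant-minus-wild-type log2 difference of each gene (points) of the proteasome and of 8 related lists (rows, with the number of genes measured), with list medians as black bars and the median of all features as a dotted line. The proteasome median, 0.23, is the furthest to the right, and points of every list lie on both sides of 0.

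Other housekeeping sets were read on the same arrays. Wild type replicates 1 and 2 were the 2 lowest arrays for 22 of 31 proteasome genes, for 6 of 75 ribosomal protein genes, for 1 of 31 aminoacyl-tRNA synthetase genes and for 1 of 8 CCT genes. The high value of wild type replicate 3 was shared with ribosomal protein genes, of which 73 had it as their highest array (41.9% of all features). Their median deviation on mutant replicate 1 was -0.13, against 0.45 for the proteasome. On that mutant array it was 0.28 for synthetase, 0.21 for CCT, 0.32 for eIF3 and 0.36 for COP9 genes. In the ubiquitin pathway lists it ranged from -0.067 (CDC-48 segregase) to 0.14 (accessory and shuttle). Single low arrays were partly shared with the proteasome: wild type replicate 1 was the lowest array for 40 of 75 ribosomal protein genes and wild type replicate 2 for 5 of 8 CCT genes. The synthetase genes were low on wild type replicate 3, with a median deviation of -0.33. These counts describe 6 arrays, and the differences between the sets were not tested.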

How the data were processed

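Total RNA of whole mixed embryos was measured on 6 arrays, 3 per genotype, grouped by title and by the column name in each description. Each deposited value is a normalized intensity of 1 probe set, linear in the gene table, and the deposited series table holds the same values as log2 (largest difference 5.63e-06). Per the submitters' processing notes Affymetrix Expression Console was used. The method and settings of normalization are not stated there, and normalization between arrays can take out a shift common to most features.

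The 77 array controls among the 22625 probe sets were not tested. Log2 of the linear intensity was fitted with limma 3.58.1 in R 4.3.3 (lmFit, eBayes, two-sided, no covariate) over all 22548 features with Benjamini-Hochberg adjustment at 0.05, with no filter on dim features. The procedure was tested on simulated data. Errors after ± are SEs of the moderated fit, n = 3 arrays per group. Names came from the table and from RefSeq genes of assembly WBcel235, by symbol for 16045 features and by sequence name for 3567, and 1253 kept the table's name. The members and lists were chosen with earlier results of these data known. Values per array are given for the 4 members with the smallest p per symbol family and for pbs-1, pbs-2, pbs-5, rpn-10, rpn-11 and rpn-6.1, and the 2 genes with the smallest p are named per related list. All genes of the accessory and SKN-1A lists are named. Alternatives were each array left out, the replicate block, the series table, quantile normalization again, centring, a filter on dim features, 16 added before log2, array weights, a 2-fold minimum, a robust prior with an intensity trend, 1 feature per gene, and all probe sets of members. Mutant replicates 2 and 3 averaged was added after seeing the data. With 3 against 3 arrays the number of arrays limits the precision.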

Additional observations from a re-analysis of the deposited data

How the results depend on the processing

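0 members passed the adjusted threshold under every alternative except array weights, where 22 passed, 20 higher and 2 lower. But 13639 of all 22548 features passed there as well, 4968 higher and 8671 lower. The estimate of the weights stopped before it converged. It put a weight of 21.1 on wild type replicate 1, against 0.20 and 0.095 on wild type replicates 2 and 3. The weighted comparison thus rested mainly on 1 wild type array, on which most members were low. No conclusion about the members is drawn from it. The count over all features was 29, and it was 19 with the replicate block, 3 after quantile normalization again, 50 with arrays centred on their medians, 8 with 16 added before log2, 46 with an intensity trend and robust prior, 0 with mutant replicates 2 and 3 averaged (chosen after seeing the data, 1059 features at an unadjusted limma p under 0.05), and 0 to 1289 with single arrays left out. Without wild type replicate 2, where 1289 of 22548 features passed, 2 named genes of the related lists passed and 0 members did. Nothing in the labels pairs the arrays. Same-numbered arrays had correlations of deviations of -0.03, 0.07 and -0.18, and the replicate block left 0 members past the threshold. The median of the members stayed positive, from 0.083 to 0.49. Centring moved the median of all features from -0.10 to -0.22. Directions turned for genes with small differences. After quantile normalization again pas-5, rpn-2, rpn-10, rpn-9, rpn-11, dss-1 and psmd-9 were at 0.15, 0.064, 0.011, 0.17, 0.060, 0.038 and 0.046. With centring pbs-2, pbs-7, rpt-3 and usp-14 were at -0.070, -0.030, -0.046 and -0.010. With array weights pas-5, pbs-1, rpn-10, rpn-11, dss-1 and wdr-23 were at 0.056, 0.11, 0.21, 0.12, 0.14 and -0.27, and with mutant replicates 2 and 3 averaged pas-5, rpn-9, psmd-9 and skn-1 were at 0.043, 0.14, 0.024 and -0.0057. With single arrays left out the ranges were -0.41 to 0.18 for dss-1, -0.42 to 0.0049 for eif-3.J, -0.11 to 0.56 for pas-3, -0.18 to 0.15 for pas-5, -0.49 to 0.18 for pbs-1, -0.24 to 0.56 for pbs-2, -0.046 to 0.50 for pbs-5, -0.10 to 0.44 for pbs-7, -0.18 to 0.16 for psmd-9, -0.12 to 0.49 for rpn-1, -0.36 to 0.098 for rpn-10, -0.38 to 0.25 for rpn-11, -0.19 to 0.10 for rpn-2, -0.30 to 0.18 for rpn-9, -0.16 to 0.46 for rpt-3, -0.0020 to 0.35 for rpt-4 and -0.044 to 0.53 for skn-1. The causes were not tested.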
